A study of Mus musculus with 48 samples.

Results

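Small nucleolar RNAs and small Cajal body RNAs were described in the amygdala of female mice across 6 groups. The members were all genes of the deposited table whose symbol started with Snord, Snora or Scarna, together with Gm22009, that had a level of at least 0.1 TPM in at least 8 of the 48 libraries. TPM is a level per gene length, brought to 1 common total in each library. Of 151 genes with such names among the 52636 genes of the table, 118 met this minimum. They comprised 69 of 99 box C/D RNAs (Snord genes), 41 of 42 box H/ACA RNAs (Snora genes) and 8 of 10 Cajal body RNAs (Scarna genes and Gm22009). Gm22009 entered by name, because its difference between groups was already known, so its values are given as a description and no test of it is used. The other members were chosen by their symbols and by their TPM level over all libraries, and the set and its markers Scarna9 and Scarna13 were proposed with earlier results of these data known.

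Box C/D RNAs guide the methylation of sugars in ribosomal and spliceosomal RNAs, and box H/ACA RNAs guide the conversion of uridine to pseudouridine. Small Cajal body RNAs carry the same boxes, often combined in one molecule, and act on the small nuclear RNAs of the spliceosome within Cajal bodies, nuclear structures that are prominent in neurons. In mammals most of these guides are cut out of introns of host genes, and they end their maturation bound to a small set of core proteins.

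The mice were female, 8 to 11 weeks old per the series text, of the line C57BL/6NTac-Brd1 (allele tm1.2Arte per the study's methods), and either wild type (WT) or heterozygous for a deletion within *Brd1* (*Brd1*+/-), a gene for a scaffold protein of histone acetyltransferase complexes. WT and *Brd1*+/- mice were given saline (vehicle), 10 mg/kg of the antidepressant imipramine (IMN) or 5 mg/kg of the antidepressant fluoxetine (FLX), with 8 mice in each of the 6 groups. Per the study's methods every mouse, controls included, had been through behavioural tests that ended with forced swimming about an hour before the brain was taken, and RNA came from a punch of the right amygdala. The deletion was constitutive, so every cell of a *Brd1*+/- mouse carried it. *Brd1* itself averaged 33.0 to 36.9 TPM in the 3 WT groups and 23.4 to 25.9 TPM in the 3 *Brd1*+/- groups.

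Facts of the libraries touched several results. The depth of the libraries is unknown from TPM, and 23420 to 27252 genes were above 0 per library. The *Brd1*+/- vehicle libraries had 26271 ± 802 genes above 0 (SD, n = 8), against means of 24666 to 25173 in the other groups. All neuronal and amygdala marker genes on the lists were detected, but the summed level of choroid plexus markers (4 genes) ran from 5.82 to 29300 TPM, and 9 libraries held more than 1000 TPM of it. The summed level of striatal projection neuron markers (5 genes) ran from 61.6 to 6550 TPM. Vehicle and drug libraries carried sample codes from separate ranges, so a drug difference and a difference between these code ranges cannot be told apart. The genotypes overlapped in both ranges, but the highest codes of each were all of WT libraries, more of them in the drug range, so genotype and code were in part tied there. In bulk tissue, fewer cells of a type and less RNA per cell cannot be told apart either.

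The Cajal body RNAs that differed between groups are shown first, because the results turned on them. Sequences are those of GENCODE M21 on GRCm38, read 5' to 3', and capitals mark every TGATGA (the C box), every TGAG (a Cajal body box) and an ACA that stands 3 bases before the end. Gm22009 (343 bases) is printed from base 44 to its end and the longer Scarna2 from base 115 to its end.
Gm22009: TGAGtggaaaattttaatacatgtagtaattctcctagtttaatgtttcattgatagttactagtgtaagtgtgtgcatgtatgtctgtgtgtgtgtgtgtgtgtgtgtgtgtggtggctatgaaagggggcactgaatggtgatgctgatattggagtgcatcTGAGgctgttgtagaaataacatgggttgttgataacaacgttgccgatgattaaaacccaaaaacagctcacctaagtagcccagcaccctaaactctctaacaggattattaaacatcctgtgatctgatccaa
Scarna9: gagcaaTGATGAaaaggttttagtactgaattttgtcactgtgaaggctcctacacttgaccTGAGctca
Scarna2: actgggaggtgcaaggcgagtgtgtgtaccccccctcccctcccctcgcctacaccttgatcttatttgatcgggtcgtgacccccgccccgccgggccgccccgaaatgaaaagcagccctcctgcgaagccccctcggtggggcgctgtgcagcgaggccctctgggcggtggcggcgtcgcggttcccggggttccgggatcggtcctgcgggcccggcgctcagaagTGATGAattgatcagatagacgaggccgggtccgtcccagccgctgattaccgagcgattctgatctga
Scarna13: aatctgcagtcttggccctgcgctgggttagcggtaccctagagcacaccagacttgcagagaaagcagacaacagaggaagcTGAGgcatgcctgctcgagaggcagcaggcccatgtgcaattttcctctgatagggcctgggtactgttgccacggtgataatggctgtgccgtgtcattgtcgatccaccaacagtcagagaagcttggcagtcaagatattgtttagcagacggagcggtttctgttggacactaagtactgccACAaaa
Gm22009 lies on chromosome 3 at 69085105 to 69085447 (minus strand, GRCm38), within an intron of Kpna4, an importin gene. Scarna9 is annotated as 70 bases on chromosome 9 at 15326264 to 15326333 (minus strand), within an intron of Cep295, a centriole gene. Scarna2 lies on chromosome 3 at 108554338 to 108554751 (minus strand) and had no host gene on its strand. Scarna13 lies on chromosome 12 at 105031075 to 105031349 (minus strand), within an intron of the noncoding host transcript Snhg10, and overlaps the exon of the microRNA gene Mir3069.

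Members of the other classes are shown for their boxes. In the C/D RNAs capitals mark a TGATGA within the first 20 bases and the last CTGA (the D box) within the last 20 bases, and in the H/ACA RNAs they mark the ACA before the last 3 bases. Snord91a and Snora61 had the highest mean levels of their classes, and Snord71 was the C/D RNA that differed between 2 groups.
Snord91a: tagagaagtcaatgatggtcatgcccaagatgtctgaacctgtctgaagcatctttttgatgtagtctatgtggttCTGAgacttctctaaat
Snord104: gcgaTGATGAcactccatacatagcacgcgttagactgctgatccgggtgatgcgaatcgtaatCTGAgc
Snord71: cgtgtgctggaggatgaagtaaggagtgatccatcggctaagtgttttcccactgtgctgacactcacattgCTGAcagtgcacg
Snora61: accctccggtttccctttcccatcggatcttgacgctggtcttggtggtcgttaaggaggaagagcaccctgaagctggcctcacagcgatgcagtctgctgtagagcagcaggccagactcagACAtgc
Snora34: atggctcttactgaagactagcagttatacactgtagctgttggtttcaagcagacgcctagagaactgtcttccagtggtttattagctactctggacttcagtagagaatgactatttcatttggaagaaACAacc
Snora64: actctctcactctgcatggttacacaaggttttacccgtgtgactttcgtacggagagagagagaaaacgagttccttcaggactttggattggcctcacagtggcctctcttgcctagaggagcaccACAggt
A TGATGA in the first 20 bases together with a CTGA in the last 20 was found in 41 of 69 C/D members (59.4%), in none of the 41 H/ACA members and in 4 of 8 Cajal body members, against 0.121% of 18127 other annotated transcripts within the members' range of lengths. The terminal ACA was found in 34 of 41 H/ACA members (82.9%), no C/D member and 2 of 8 Cajal body members (25.0%), against 1.78% of the other transcripts. TGAG, which a CTGA can share its letters with, was found anywhere in 7 of 8 Cajal body members (87.5%) but also in 81.2% of C/D members and 70.9% of other transcripts. All searches read the transcript strand only. A match is a description of the letters and not of a working site.

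C/D members were short, with a median length of 78.0 bases (64 to 238), H/ACA members reached up to 205 bases, and Cajal body members had a median of 202.5 bases and were at least 70 bases long. Mean levels over the 48 libraries ran from 0.203 to 39.9 TPM for C/D RNAs (median 2.32), from 0.256 to 14.3 TPM for H/ACA RNAs (median 2.21) and from 0.239 to 3.3 TPM for Cajal body RNAs (median 1.05). Of the members 22 C/D, 14 H/ACA and no Cajal body RNAs reached 0.1 TPM in all 48 libraries. Close to the minimum, Snord33 and Snora35 were just inside with 10 libraries each (means of 0.203 and 0.256 TPM). Just outside, with 6 libraries each, were Snord11, Snord111, Snord15a, Snord85 and Snord99 (means of 0.0985 to 0.214 TPM). Of the 33 genes below the minimum 17 were listed at 0 in every library, and 16 of these were copies of Snord116, the imprinted brain snoRNA cluster (17 copies in the table). Most of these copies are identical in sequence to other genes, between which reads cannot be told apart. Their values of 0 thus show no absence of the RNA. Among Cajal body RNAs, Scarna3b was listed at 0 in all libraries and Scarna10 reached 0.1 TPM in 1 library.

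An annotated host gene on the same strand held 110 of the 118 members, 52 in an intron and 58 overlapping an exon. An exon counted if it belonged to any annotated transcript of the host, so such a member can be intronic in other transcripts. Of the members, 32 lay in ribosomal protein genes and 15 in Snhg genes or Gas5, noncoding transcripts known mainly as snoRNA hosts. All 6 Cajal body members with a host were intronic. Levels of members were low beside those of their hosts: of 109 members with a measured host, 106 had a lower mean TPM than the host, and the median ratio of member to host was 0.0279. The 3 exceptions were Snord91a (39.9 against 39.2 TPM for Tsr1, a ribosome maturation factor), Snord89 (4.47 against 3.85 TPM for Gm15832) and Snora78 (1.47 against 1.37 TPM for Snhg9). Members of 1 host differed widely in level, as in Snhg12, whose 4 members averaged from 0.647 to 14.3 TPM, and in Rpl13a, whose 4 members averaged from 0.203 to 5.48 TPM. Reads in a member that overlaps an exon of its host cannot be assigned with certainty to either, and the fractional values of Snord33 (as low as 0.00012 TPM above 0), which overlaps an Rpl13a exon, come from such a place.

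**Figure D1:**
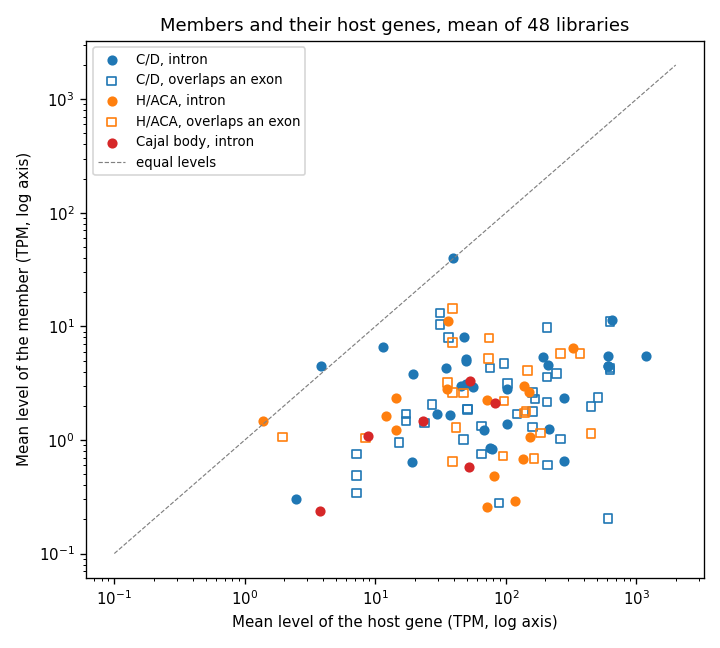
Mean TPM of each member over 48 libraries (vertical, log axis) against the mean TPM of its host gene (horizontal, log axis), with filled circles for intronic members, open squares for members overlapping a host exon and a dashed line of equal levels. Of 109 members 106 lie below the line, and Snord91a lies highest at 39.9 TPM.

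Box C/D and H/ACA RNAs as classes were level across the 6 groups. The summed level of the 69 C/D members averaged 260.3 to 298.4 TPM by group, and ran from 225.7 to 315.2 TPM in WT vehicle and from 226.5 to 322.1 TPM in *Brd1*+/- vehicle libraries. The 41 H/ACA members summed to means of 118.4 to 134.4 TPM, with single libraries from 68.6 to 176.0 TPM. In both classes the groups overlapped throughout. The Cajal body class stood apart in 1 group: it summed to 27.9 ± 6.90 TPM in *Brd1*+/- vehicle mice (17.1 to 37.6 TPM, SD, n = 8), whereas the other groups averaged 5.30 to 8.45 TPM and their highest single library held 13.6 TPM. Most of that sum was Gm22009. Without it, the 7 Scarna genes summed to 10.4 ± 2.81 TPM in *Brd1*+/- vehicle mice (5.87 to 15.9 TPM), against 4.85 ± 1.84 TPM in WT vehicle mice (2.69 to 7.38 TPM), 4.95 ± 1.62 TPM in *Brd1*+/- IMN mice and 7.91 ± 1.96 TPM in *Brd1*+/- FLX mice, and the ranges of the groups overlapped. Scarna9 and Scarna2 made up most of what remained between the vehicle genotypes.

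**Figure D2:**
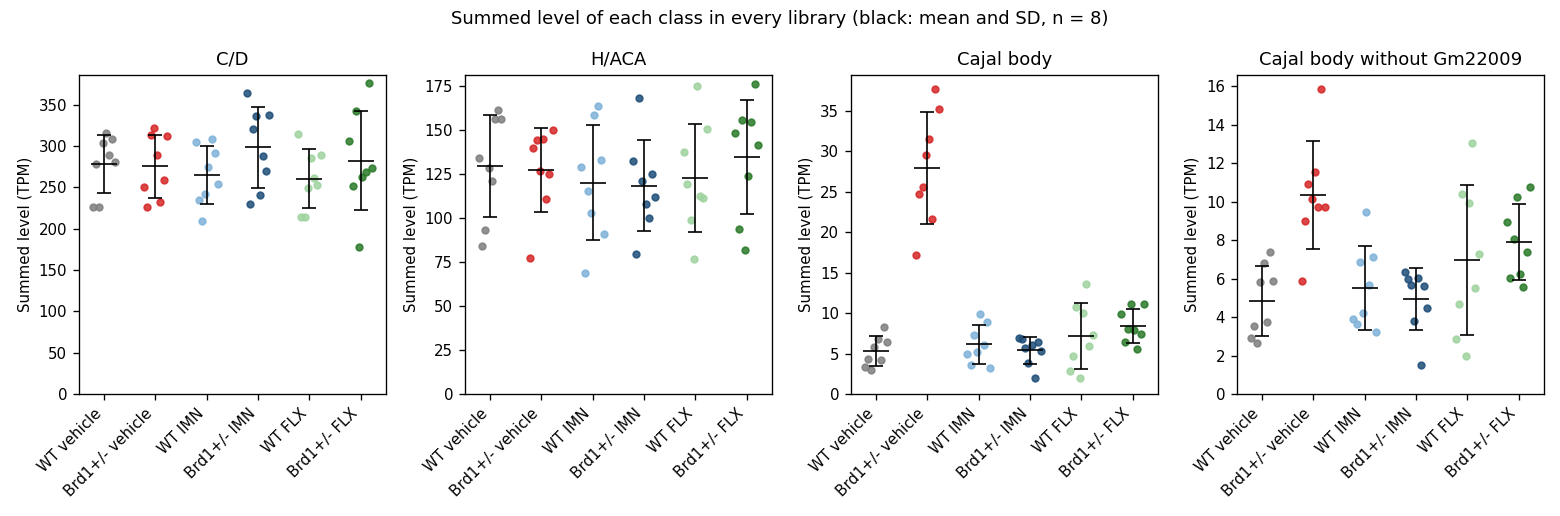
Summed TPM of each class in every library by group (points), with the mean and SD (black, n = 8). The C/D and H/ACA sums overlap in all groups, and the Cajal body sum is 17.1 to 37.6 TPM in Brd1+/- vehicle mice against at most 13.6 TPM in the other groups.

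Individual C/D and H/ACA members varied more between group means than their sums did. The highest group mean was over 2 times the lowest for 45 of 69 C/D members and 24 of 41 H/ACA members, with median ratios of 2.43 and 2.30. For Cajal body members the median ratio was 9.26, and 7 of 8 exceeded 2 times. Lowest group means near 0 inflate such ratios, as for Scarna9 (0.0683 TPM), Scarna2 (0.0857 TPM) and Scarna8 (0.0447 TPM). The ratios of the classes were therefore not compared at like levels. The group with the highest mean was *Brd1*+/- vehicle for 13 C/D members, 7 H/ACA members and 4 Cajal body members. A count over the members that passed a minimum level carries no test.

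The first comparison asked how *Brd1*+/- and WT mice differed after vehicle. Differences are of log2(TPM + 0.1) throughout, which understates changes of low genes, and a gene was called at an adjusted p under 0.05 (limma, two-sided, Benjamini-Hochberg over all genes tested). Leaving Gm22009 aside, 1 of 102 members tested was called, Scarna2, higher in *Brd1*+/- mice, beside 0.708% of all 24279 genes tested. None of 61 C/D and 38 H/ACA members was called. At an unadjusted p under 0.05 there were 5 and 0 of them, beside 2068 of all 24279 genes. Their median differences were 0.07 and 0.03, against 0.03 over all genes. The 15 members not tested lay below 0.1 TPM in too many of the 16 libraries, and Scarna9 and Scarna2 passed that minimum only through the *Brd1*+/- libraries, where they were high, so the count is not support for a difference of the class.

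Gm22009 was listed at 0 to 0.911 TPM in WT vehicle mice (median 0.475) and at 11.3 to 25.4 TPM in *Brd1*+/- vehicle mice (median 17.6). In the 4 drug groups its highest library held 1.76 TPM. All 8 *Brd1*+/- vehicle libraries thus lay above every other library of the study, and the other 5 groups, with means of 0.179 to 0.670 TPM, overlapped one another. The difference was 5.34 ± 0.47 (SE) between the genotypes after vehicle, -5.51 ± 0.54 for IMN and -5.46 ± 0.58 for FLX in *Brd1*+/- mice, with the same *Brd1*+/- vehicle libraries in all 3. Kpna4, its host, averaged 49.9 to 56.5 TPM in the 6 groups and differed by 0.06 ± 0.17 between the genotypes after vehicle (adjusted p = 0.968, limma), so the host was not called where its intronic RNA was at its highest.

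Scarna9, a guide for spliceosomal RNA, was above 0 in all 8 *Brd1*+/- vehicle libraries, at 2.41 to 9.40 TPM (median 4.22). In WT vehicle mice it was above 0 in 3 of 8 libraries (median 0, highest 5.88 TPM). The groups overlapped through the higher 2 of these WT libraries, the other one lying below the *Brd1*+/- range. The difference between the genotypes was 3.73 ± 0.89 with an adjusted p of 0.0711 (limma) and was not called. It was called when any of these 3 WT libraries (vehicle replicates 2, 4 and 8) was left out, with an adjusted p as low as 0.0099. Its host Cep295 differed by 0.09 ± 0.10 (adjusted p = 0.891, limma).

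Scarna2, known as a guide for spliceosomal RNA that is transcribed from its own promoter, was above 0 in all 8 *Brd1*+/- vehicle libraries at 0.407 to 1.68 TPM (median 0.935). WT vehicle mice had it above 0 in 2 of 8 libraries, the higher at 0.427 TPM. The groups overlapped between 0.407 and 0.427 TPM only, and the difference was 2.65 ± 0.46 (adjusted p = 0.00608, limma). It passed the minimum level only through the *Brd1*+/- group. With no minimum the adjusted p was 0.0071 (limma). The call was lost with the libraries of high choroid plexus markers left out (2.40, adjusted p = 0.0531).

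Scarna6, the most abundant of the Scarna genes, showed no such pattern. It ran from 0 to 3.86 TPM in WT vehicle mice (median 1.70) and from 1.27 to 4.12 TPM in *Brd1*+/- vehicle mice (median 2.15), the groups overlapped, and the difference was 0.63 ± 0.58 (adjusted p = 0.853, limma). Scarna3a averaged 0.158 ± 0.314 TPM in vehicle-treated WT mice and 0.831 ± 0.80 TPM in their *Brd1*+/- counterparts, Scarna17 averaged 0.388 and 0.499 TPM, and Scarna8 averaged 0.0447 and 0.217 TPM. These 3 and Scarna13 reached 0.1 TPM in too few vehicle libraries to be tested. Of the 7 Scarna genes, 3 could thus be tested after vehicle and 1 was called, beside 0.708% of all genes tested. Of these 3, Scarna9 and Scarna2 passed the minimum only through the *Brd1*+/- libraries, so the count is no rate for the class.

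**Figure D3:**
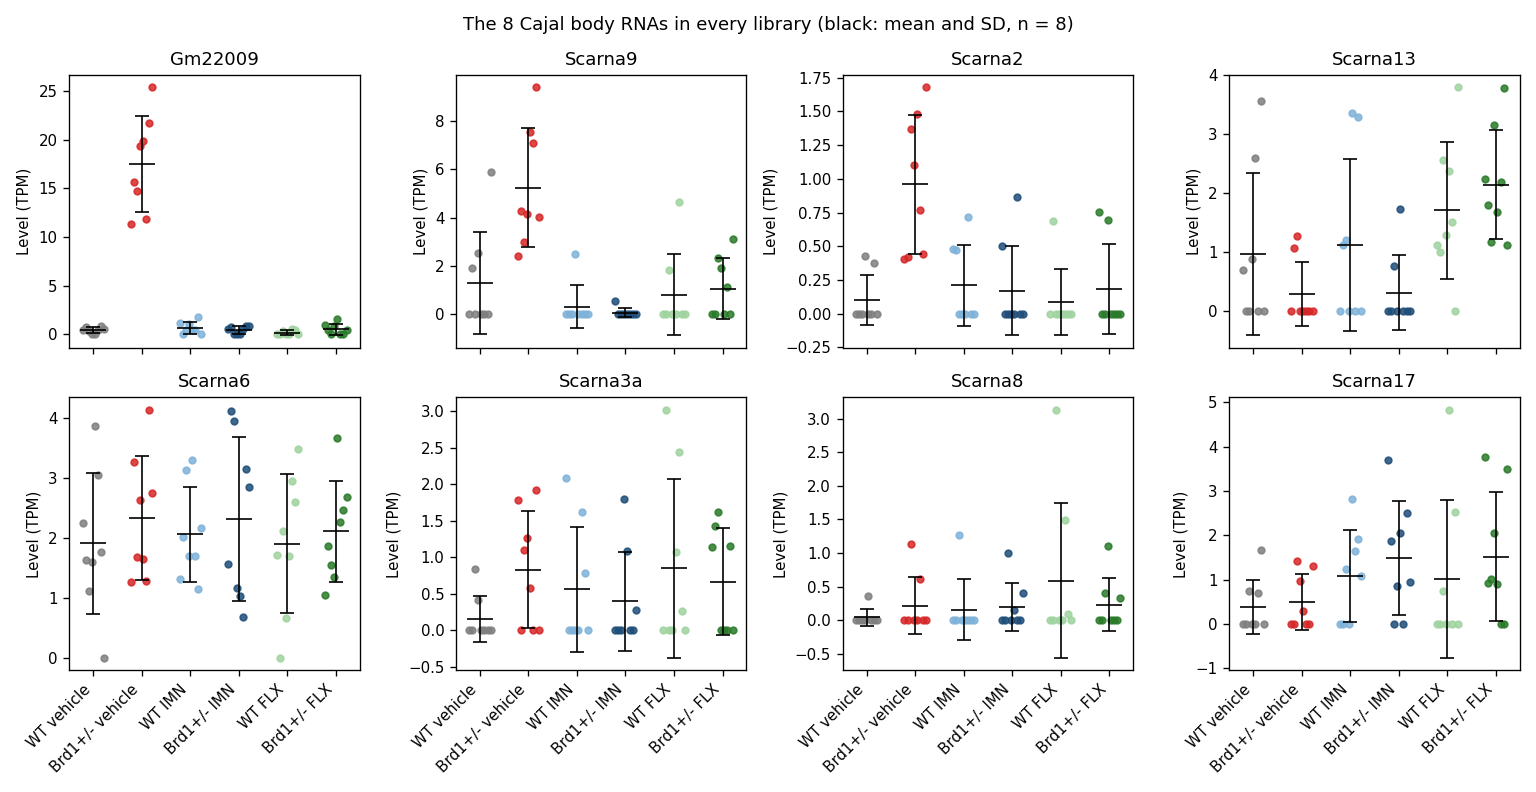
TPM of the 8 Cajal body RNAs in every library by group (points), with the mean and SD (black, n = 8). Gm22009, Scarna9, Scarna2 and Scarna6 are above 0 in all 8 Brd1+/- vehicle libraries, Scarna13 is above 0 in all 8 Brd1+/- FLX libraries, and only the Gm22009 libraries of Brd1+/- vehicle mice lie apart from all other groups.

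Other transcripts moved with this group. Rn7s1 and Rn7s2, near-identical copies of the signal recognition particle RNA between which reads cannot be told apart, stood at 64.1 TPM or more in every *Brd1*+/- vehicle library and at no more than 11.1 TPM in any other library. The nuclear RNA Malat1 was higher in *Brd1*+/- vehicle mice by 1.59 ± 0.14 (adjusted p = 1.15e-05, limma), while the other 5 nuclear-retained RNAs on the list were not called. Rn7sk, the short nuclear RNA of transcription elongation control, differed by 1.18 ± 0.29 (adjusted p = 0.0837, limma). The 4 oligodendrocyte markers were all higher at an unadjusted p under 0.05 (median difference 1.55), and none was called. Their sum ran from 1850 to 13600 TPM in *Brd1*+/- vehicle mice and from 510 to 8960 TPM in WT vehicle mice. The part of these differences in the Cajal body RNA results was not tested. Among 224 other tested genes annotated as snoRNA or scaRNA 1 was called (0.446%), Gm24339. Among 2366 other tested noncoding genes of 1 exon and up to 450 bases, these included, 27 were called higher and 1 lower (1.18%). Of all genes tested 0.708% were called.

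IMN was compared with vehicle in *Brd1*+/- mice to see whether members changed with the drug. Leaving Gm22009 aside, 3 of 99 members tested were lower and none was higher, beside 0.776% of 24225 genes tested. They were Scarna9, Scarna2 and the C/D RNA Snord71. Scarna9 and Scarna2 passed the minimum level only through the vehicle group, where they were high, so the count is not support for a difference of the class. The median difference was 0.07 over 57 C/D members, -0.20 over 37 H/ACA members and -0.03 over all genes. The *Brd1*+/- vehicle libraries were the same as in the genotype comparison, so these directions are not independent of it. Other transcripts moved here too. Malat1 fell by 1.66 ± 0.16 (adjusted p = 1.71e-05, limma) and Rn7s1 by 4.02 ± 0.24 (adjusted p = 1.99e-07, limma). All 4 oligodendrocyte markers (median difference -1.03), all 3 microglia markers (-0.39) and 2 of 3 endothelial markers (-0.36) were lower after IMN at an unadjusted p under 0.05, and none was called. None of these markers was at 0 in any library. The oligodendrocyte sum ran from 932 to 5620 TPM after IMN and from 1850 to 13600 TPM after vehicle, the microglia sum from 79.2 to 107 TPM and from 92.1 to 189 TPM, and the endothelial sum from 38.5 to 69.6 TPM and from 56.4 to 84.8 TPM. The part of these differences in the results for the members was not tested.

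Scarna9 was listed at 0 in 7 of 8 *Brd1*+/- IMN libraries and at 0.546 TPM in the other one. It had run from 2.41 to 9.40 TPM after vehicle, so the groups did not overlap, and it fell by 5.26 ± 0.40 (adjusted p = 1.15e-06, limma, and 2.31e-06 with no minimum level). Cep295 differed by -0.03 ± 0.12 (adjusted p = 0.979, limma). In WT mice Scarna9 was above 0 in 3 of 8 vehicle and 1 of 8 IMN libraries, too few to be tested. The difference between the IMN effects of the genotypes was -3.98 ± 1.13 (adjusted p = 0.143, limma), which was not called, so the fall is not shown to be specific to *Brd1*+/- mice. It was called when WT vehicle replicate 8, the WT library with the most Scarna9, was left out (adjusted p = 0.0269).

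Scarna2 was above 0 in 2 of 8 *Brd1*+/- IMN libraries, at 0.503 and 0.866 TPM, which overlapped the vehicle range. It fell by 2.50 ± 0.53 (adjusted p = 0.0342, limma, and 0.0344 with no minimum level). This call rested on single libraries, since it was lost when any of 12 of the 16 was left out (adjusted p up to 0.107), vehicle replicates 2, 3, 4, 5, 6 and 8 and IMN replicates 2, 3, 4, 5, 7 and 8. It was also lost with a pseudocount of 1 (-0.74, adjusted p = 0.0818) and without the libraries of high choroid plexus markers (-2.09, adjusted p = 0.351).

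Snord71, a methylation guide for ribosomal RNA in an intron of Ap1g1, the gene of an adaptor complex subunit (chromosome 8, 109839295 to 109839379, plus strand), was the only C/D or H/ACA member called in any comparison. It ran from 2.1 to 6.70 TPM in *Brd1*+/- vehicle mice (median 4.17) and from 0.846 to 2.1 TPM in *Brd1*+/- IMN mice (median 1.86). The highest IMN library and the lowest vehicle library met at 2.1 TPM. Snord71 fell by 1.19 ± 0.24 (adjusted p = 0.021, limma), and Ap1g1 differed by -0.11 ± 0.11 (adjusted p = 0.855, limma). The call was lost when *Brd1*+/- vehicle replicate 1, 2, 4, 5, 6 or 8 was left out (adjusted p up to 0.0726) and in 1 fit of all 48 libraries (adjusted p = 0.45). In WT mice Snord71 averaged 2.97 ± 1.39 TPM after vehicle and 2.94 ± 1.75 TPM after IMN, and the difference between the effects was -1.03 ± 0.55 (adjusted p = 0.587, limma).

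FLX was compared with vehicle in *Brd1*+/- mice in the same way. Leaving Gm22009 aside, 2 of 103 members tested were called, beside 0.731% of 24336 genes tested. Scarna13 was higher and Scarna2 was lower. Each passed the minimum level only through the group where it was high, so the count is not support for a difference of the class. None of 59 C/D and 38 H/ACA members was called. At an unadjusted p under 0.05 there were 4 and 2 of them, beside 1689 of all 24336 genes. Their medians were 0.06 and 0.04, against -0.04 over all genes. Malat1 fell by 1.51 ± 0.15 (adjusted p = 3.7e-05, limma) and Rn7s1 by 4.96 ± 0.26 (adjusted p = 2.91e-08, limma). None of the 4 oligodendrocyte markers reached an unadjusted p under 0.05 (median difference -0.84, sums of 709 to 14700 TPM after FLX), and 1 of 3 microglia and 1 of 3 endothelial markers were lower at that level. The part of these differences in the results for the members was not tested.

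Scarna13, an H/ACA-type guide of Cajal bodies, was above 0 in all 8 *Brd1*+/- FLX libraries, at 1.13 to 3.78 TPM (median 2.00). After vehicle it was above 0 in 2 of 8 *Brd1*+/- libraries, at 1.07 and 1.28 TPM. The groups overlapped through the second of these, and the difference was 3.47 ± 0.60 (adjusted p = 0.0067, limma, and 0.00863 with no minimum level). WT mice had it above 0 in 4 of 8 vehicle libraries (highest 3.56 TPM) and in 7 of 8 FLX libraries (highest 3.80 TPM), a difference of 1.67 ± 0.92 (adjusted p = 0.379, limma). The difference between the FLX effects of the genotypes was 1.80 ± 1.13 (adjusted p = 0.441, limma). Snhg10, its host, averaged 8.29 to 9.83 TPM in the 6 groups and differed by 0.16 ± 0.28 for FLX in *Brd1*+/- mice (adjusted p = 0.977, limma). Scarna13 thus had another group order than the 3 RNAs above, lowest after vehicle and IMN in *Brd1*+/- mice (0.293 and 0.313 TPM) and highest after FLX in both genotypes (1.71 and 2.15 TPM).

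Scarna2 was above 0 in 2 of 8 *Brd1*+/- FLX libraries, at 0.693 and 0.757 TPM, and fell by 2.47 ± 0.54 (adjusted p = 0.0428, limma, and 0.0443 with no minimum level). The call was lost when any of 14 of the 16 libraries was left out (adjusted p up to 0.138), all but FLX replicates 1 and 4. Scarna9 was above 0 in 4 of 8 *Brd1*+/- FLX libraries, the highest at 3.12 TPM, within the vehicle range. Its difference of -3.41 ± 0.81 had an adjusted p of 0.0701 (limma), and it was called without FLX replicate 3 or 8.

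In WT mice and between drug-treated genotypes no member was called. With limma, IMN against vehicle in WT mice gave 0 of 102 members, beside 0% of 23644 genes. At an unadjusted p under 0.05 there were 7 members, beside 1084 of all genes. FLX against vehicle in WT mice gave 0 of 99 members, beside 0.335% of 23557 genes. Here 8 members were at an unadjusted p under 0.05, beside 3949 of all genes. *Brd1*+/- against WT mice gave 0 of 96 members after IMN, beside 0.017% of 23581 genes, and 0 of 102 after FLX, beside 1.54% of 23635 genes. At an unadjusted p under 0.05 there were 5 and 6 members, beside 844 and 3928 of all genes. In FLX mice the members' median difference was 0.12 and that of all genes -0.06. Differences between drug effects of the genotypes were read leaving Gm22009 aside (limma). They gave 0 of 112 members for IMN, beside 0.536% of 26673 genes, and 0 of 117 members for FLX, beside 1.71% of 26657 genes. At an unadjusted p under 0.05 there were 8 and 11 members, beside 2464 and 4469 of all genes. For Gm22009 the differences between drug effects were -5.81 ± 0.91 and -4.34 ± 0.88, given as a description. Over all genes the FLX difference had a median of -0.10, and over the members -0.02.

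**Figure D4:**
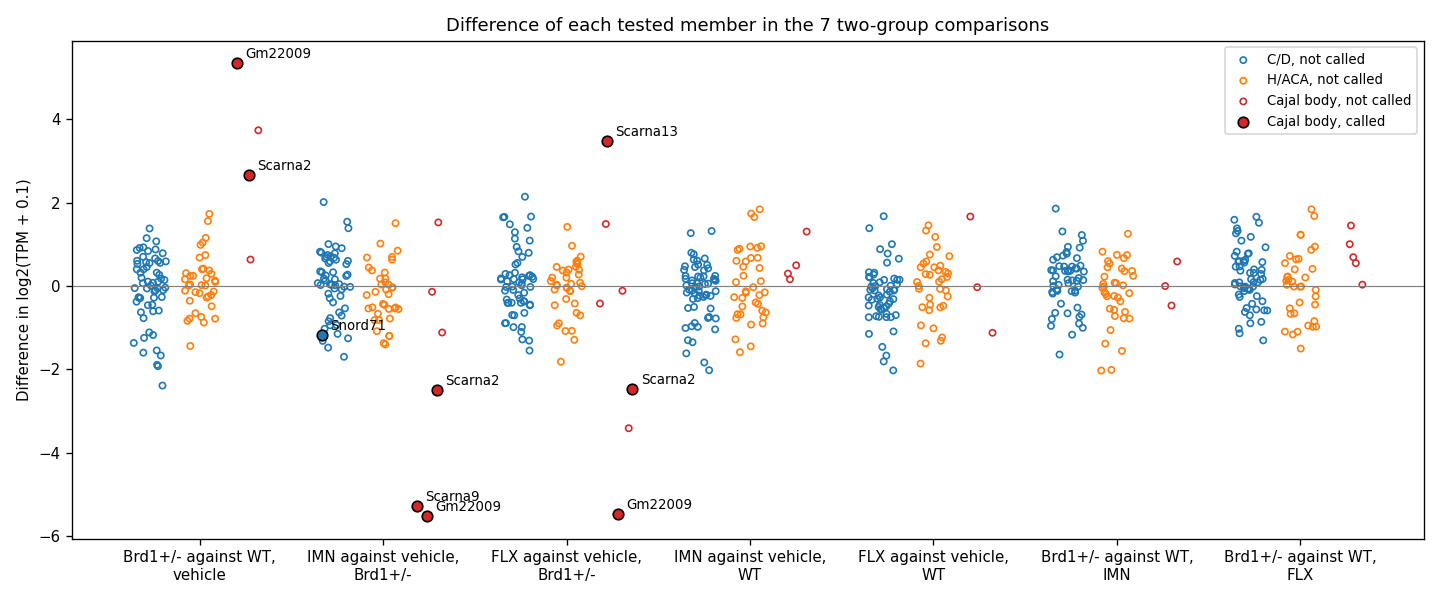
Difference in log2(TPM + 0.1) of each tested member (points) in the 7 comparisons of 2 groups, coloured by class, with filled and named points for members called at an adjusted p under 0.05. C/D and H/ACA members lie around 0, Snord71 is the 1 called among them, and the 8 other filled points are Cajal body RNAs, 3 of them Gm22009, shown as a description.

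The most abundant C/D and H/ACA RNAs, guides for ribosomal RNA, did not pass the test in any comparison. Snord91a, intronic in Tsr1, ran from 24.9 to 59.4 TPM in WT vehicle mice (median 44.1) and from 27.7 to 61.0 TPM in *Brd1*+/- vehicle mice (median 38.7). Its smallest adjusted p was 0.0897 (limma), for *Brd1*+/- against WT mice after FLX, with a difference of 0.63 ± 0.18. There *Brd1*+/- libraries ran from 37.1 to 64.4 TPM and WT libraries from 19.4 to 46.3 TPM, and the groups overlapped. Snord104 averaged 15.8 to 21.6 TPM by group and Snord69, which overlaps an annotated exon of the nucleolar protein gene Gnl3, 10.2 to 14.8 TPM. The smallest adjusted p over the 7 comparisons was 0.606 for Snord104 and 0.341 for Snord69 (limma).

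Of the H/ACA RNAs, Snora61 in Snhg12 averaged 11.4 to 16.5 TPM by group and Snora34 in Kansl2, a gene for a subunit of a histone acetyltransferase complex, 8.35 to 13.9 TPM. Their smallest adjusted p values were 0.226 and 0.661 (limma). Snora64, which overlaps an exon of the ribosomal protein gene Rps2, was spread within every group, for example from 1.08 to 25.1 TPM in WT vehicle mice (median 10.8) and from 1.47 to 20.9 TPM in *Brd1*+/- vehicle mice (median 2.15). Its spread within a group exceeded the differences between group means (4.58 to 11.4 TPM), and its smallest adjusted p was 0.344 (limma). Rps2 differed by at most 0.23 in size in the 7 comparisons.

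**Figure D5:**
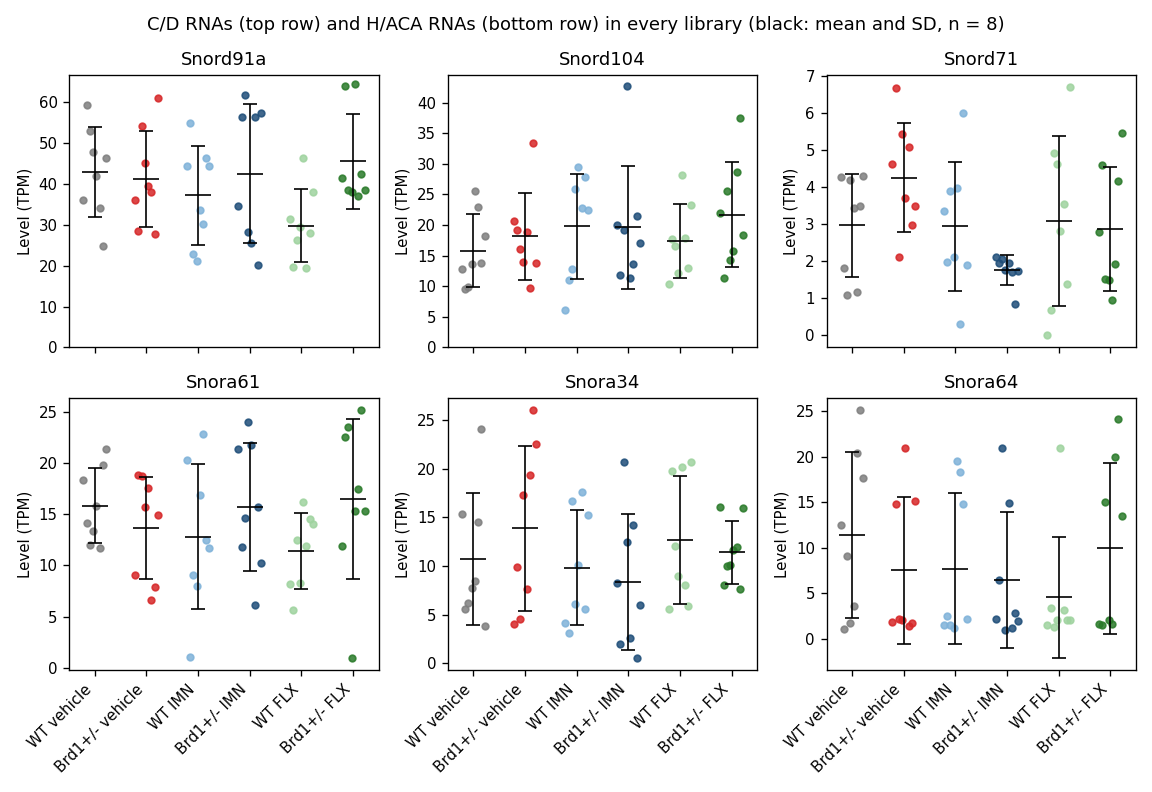
TPM of 3 C/D RNAs (Snord91a, Snord104, Snord71) and 3 H/ACA RNAs (Snora61, Snora34, Snora64) in every library by group (points), with the mean and SD (black, n = 8). The groups overlap for each, and Snord71 lies between 0.846 and 2.1 TPM in Brd1+/- IMN mice.

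Hosts, core proteins and assembly factors were read beside the members. Of 80 tested host genes none was called in the 7 comparisons, beside 0% to 1.54% of all genes. The elongation factor gene Eef2 (host of Snord37) had a lower FLX effect in *Brd1*+/- than in WT mice, by -0.37 ± 0.09 (adjusted p = 0.0299, limma). It was 1.25% of the tested hosts, beside 1.71% of all genes called there. At such shares these counts are not a result about the hosts. The 4 hosts of Gm22009, Scarna9, Scarna13 and Snord71 differed by -0.20 to 0.18 over the 7 comparisons (smallest adjusted p = 0.466, limma). None of the 4 C/D core protein genes (Fbl, Nop56, Nop58, Snu13), the 4 H/ACA core protein genes (Dkc1, Gar1, Nhp2, Nop10), the 10 assembly factor genes or the 3 Cajal body protein genes (Coil, Wrap53, Smn1) was called in any of the 9 comparisons. With at most 1.71% of all genes called in any comparison, no call among so few genes is not a result about them. Nhp2, an H/ACA core protein, came nearest, with 0.52 ± 0.13 for *Brd1*+/- against WT mice after FLX (adjusted p = 0.0563, limma). Coil, the scaffold protein of Cajal bodies, differed by -0.06 ± 0.10 between the genotypes after vehicle (adjusted p = 0.941, limma).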

How the data were processed

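Punches of the right amygdala from 48 female mice (6 groups of 8) were profiled by RNA sequencing with a TruSeq kit. Per the study's methods and the submitters' processing notes, the authors trimmed single-end reads (Trimmomatic, FastQC), aligned them to GRCm38 with HISAT2 2.1.0 and quantified genes with StringTie 1.3.4, and deposited TPM values, reads divided by gene length and scaled to 1 sum per library. TPM keeps no depth, so no counting interval was given, and a rise of some genes lowers the share of others. Whether TruSeq selected polyadenylated RNA and whether counting used strand are not given in the sources used here. If such RNA was selected, RNAs without a poly(A) tail would be depleted.

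Groups were taken from the sample titles. The series text names other brain regions and another sequencer, and the sample labels were followed. Members and lists were chosen with earlier results of these data known. Gene IDs were matched to GENCODE M21 (52489 of 52636, 99.7%) for class, position and host. Here limma 3.58.1 (R 4.3.3) was fitted to log2(TPM + 0.1), with a trended prior, on all genes with at least 0.1 TPM in at least 8 libraries of the groups compared, two-sided, with Benjamini-Hochberg adjustment over all genes. Named were the 3 markers of the module (Scarna9, Scarna13, Gm22009), the 3 members of highest mean per class, up to 3 called members per class and direction in the 3 main comparisons and 2 in others, members next to the minimum and the hosts. Other Scarna genes, Snord89, Snora78, Nhp2, Coil, Eef2 and other snoRNA genes were named after their values were seen. On simulated data for *Brd1*+/- against WT mice after vehicle (23503 genes), 152 of 200 changed genes were called, none in the wrong direction. These were 60.6% of those changed 2-fold and 89.6% of those changed 4-fold, and 11 unchanged genes were called too. Changed genes were drawn only from those with a mean log2(TPM + 0.1) above 0 in WT vehicle mice. Scarna2, Scarna9 and Scarna13 were listed at 0 in many WT vehicle libraries, so these rates do not apply to them. No 2 libraries held identical values.

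Alternatives were pseudocounts of 0.01 and 1, other minimum levels, median-ratio scaling, no trend, a joint fit of the 6 groups, a block for the replicate number, the sample code range as a term for genotype comparisons, and leaving out each library. The oligodendrocyte sum as a covariate and leaving out the 9 libraries with over 1000 TPM of choroid plexus markers (minimum then in at least 6 libraries) were chosen after seeing the data.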

Additional observations from a re-analysis of the deposited data

Results flagged for a closer look

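Single libraries stood far from the other 7 of their group in 21 of the group values read for the named members, the other Cajal body RNAs and the class sums (16.9% of them). The rate of about 1 in 20 for this rule holds for normally distributed values. It does not apply to an RNA listed at 0 in the other 7 libraries, where any value above 0 is flagged. Most of the flagged values were of RNAs listed at or near 0 in the other libraries. For Scarna9 they were the highest libraries of WT vehicle (5.88 TPM), WT IMN (2.50 TPM), *Brd1*+/- IMN (0.546 TPM) and WT FLX (4.65 TPM), for Scarna13 that of *Brd1*+/- IMN (1.74 TPM) and for Scarna2 that of WT FLX (0.686 TPM). For Scarna8 they were the highest of WT vehicle (0.358 TPM), WT IMN (1.27 TPM), *Brd1*+/- IMN (1.00 TPM) and *Brd1*+/- FLX (1.11 TPM), and for Scarna17 that of WT vehicle (1.67 TPM).

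Snord33 stood out in *Brd1*+/- vehicle (3.25 TPM), WT IMN (0.0605 TPM), *Brd1*+/- IMN (0.251 TPM) and *Brd1*+/- FLX (3.17 TPM), and Snora35, which lies in an intron of the serotonin receptor gene Htr2c, in WT IMN (1.26 TPM) and *Brd1*+/- FLX (1.11 TPM). Among abundant members, Snord104 had single high libraries in *Brd1*+/- vehicle (33.4 TPM) and *Brd1*+/- IMN (42.7 TPM), and Snora64 one in WT FLX (20.9 TPM, the next at 3.45 TPM). Snord71 had a low library in *Brd1*+/- IMN (0.846 TPM, the next at 1.72 TPM). None of the class sums had such a library.

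The drug differences of Gm22009 differed between the genotypes by -5.81 for IMN and by -4.34 for FLX on the log2 scale. Gm22009 was chosen with this difference known, and the same vehicle libraries enter both values.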

How the results depend on the processing

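Numbers of called members moved with the processing, in the comparisons of 2 groups mostly through Scarna2, Snord71 and Scarna13. The counts here include Gm22009. Between the vehicle genotypes the count of 2 became 1 with a minimum of 1 TPM, with 0.1 TPM required in most libraries of the fit (12 of 16), with the replicate block and without the libraries of high choroid plexus markers, and ran from 2 to 3 with 1 library left out. For IMN in *Brd1*+/- mice the count of 4 became 2, 1, 2 and 2 under these settings and ran from 2 to 4 with 1 library left out. For FLX in *Brd1*+/- mice the count of 3 became 1 with 0.1 TPM in most libraries and 1 with the replicate block, and ran from 2 to 3. With 0.1 TPM in most libraries, Scarna2 in each of these comparisons, Scarna9 for IMN and Scarna13 for FLX lay below the minimum and were not tested. Nor was Scarna2 tested with a minimum of 1 TPM. Those calls were thus removed by the minimum and not by a test. The difference between genotypes in the IMN effect went from 1 called member to 0 with a pseudocount of 0.01 and to 2 with the oligodendrocyte covariate, and that in the FLX effect from 1 to 0 with a pseudocount of 0.01, with 0.1 TPM in most libraries and with the covariate. With 1 library left out both counts ran from 1 to 2. The 1 member called in each main fit was Gm22009, so these counts are a description and no test of it is used. For the FLX effect Gm22009 lay below the minimum with 0.1 TPM in most libraries and was not in that fit. *Brd1*+/- against WT after FLX ran from 0 to 1, with Snora17 called without *Brd1*+/- FLX replicate 3 and Snord1b without WT FLX replicate 7. Scarna2 was added in the IMN effect without *Brd1*+/- IMN replicate 6 and in the FLX effect without *Brd1*+/- FLX replicate 4, and Scarna9 in the IMN effect without WT vehicle replicate 8. The cause was not tested.

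With the replicate block the adjusted p was 0.0719, 0.161 and 0.192 for Scarna2 (vehicle genotypes, IMN, FLX), 0.0744 for Scarna13 and 0.0706 for Snord71. The numbers did not pair the libraries, with median correlations between same-numbered libraries of -0.07 to 0.13 and at most 2 of 8 closest to their own number. Snord71 was also lost with other minimum levels (0.0794 and 0.0554), with the oligodendrocyte covariate (0.111) and without high choroid plexus libraries (0.0636), and Scarna2 after FLX with a pseudocount of 1 (0.0954), with the covariate (0.0624) and without those libraries (0.608). Scarna9 gained a call between the vehicle genotypes in 1 fit of all 48 libraries (0.0198), and after FLX in that fit (0.0458) and with a pseudocount of 1 (0.0274). Without the high choroid plexus libraries 2 uncalled differences changed sign by at least 1 SE. They were Gm22009 for *Brd1*+/- against WT after IMN (0.34) and Scarna6 after FLX (-0.12). Of the values of single members 1394 kept their status of called or not called, 51 lost a call and 12 gained one. Most of the 1394 were of differences not called in the main fit, so their number does not measure how stable the calls were. The 51 were all of differences called in the main fit. The 1394 include uncalled differences that changed sign by less than 1 SE. Depth is unknown and most Cajal body RNAs were listed at 0 in many libraries, so absence of a call at these levels shows no absence of a difference.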

Other observations

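Genes annotated as snoRNA or scaRNA under other names numbered 1408 in the table, and 321 of them met the same minimum level. With limma over all genes, 5 calls were made among them in the 9 comparisons, for 4 genes, which were named after their values were seen. Between the vehicle genotypes 1 of 224 was called (0.446%, beside 0.708% of all genes), and after FLX 1 of 217 (0.461%, beside 1.54%). IMN in *Brd1*+/- mice gave 2 of 217 (0.922%, beside 0.776%) and FLX in WT mice 1 of 213 (0.469%, beside 0.335%). Gm24339 was, like Gm22009, highest in *Brd1*+/- vehicle mice, at a mean of 6.23 TPM in *Brd1*+/- vehicle mice against 0.49 to 1.65 TPM in the other 5 groups. It was higher by 3.11 ± 0.63 in *Brd1*+/- than in WT mice after vehicle (adjusted p = 0.0238, limma) and fell by 4.68 ± 0.74 with IMN in *Brd1*+/- mice (adjusted p = 0.00304, limma), 2 values that share the same vehicle libraries.

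The other calls had different group orders. Gm26498 was higher after IMN in *Brd1*+/- mice by 1.3 ± 0.29 (adjusted p = 0.0469, limma), at means of 3.85 TPM after vehicle and 8.72 TPM after IMN. Gm24067 fell by 2.75 ± 0.44 with FLX in WT mice (adjusted p = 0.0202, limma), from 6.81 to 1.22 TPM, and averaged 5.47 and 5.18 TPM in *Brd1*+/- mice after vehicle and FLX. Gm23346 was higher by 2.32 ± 0.54 in *Brd1*+/- than in WT mice after FLX (adjusted p = 0.0406, limma), at 0.737 against 0.0692 TPM. Its WT mean lay below 0.1 TPM, so it could pass the minimum level only with the *Brd1*+/- libraries, where it was high. This call is therefore given as a description. The alternative settings were not read for these 4 genes.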
